A study of Rattus norvegicus with 30 samples.

Results

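Genes that mark alveolar type 1 cells, the flat cells of the alveolar wall, were followed in lung tissue of rats with severe acute pancreatitis (SAP) and of their controls. The 7 genes, Ager, Pdpn, Emp2, Cav1, Clic5, Rtkn2 and Hopx, were taken by symbol from the deposited read count and FPKM tables. They were 7 of 22914 genes with counts, and all 7 passed the filter on low counts that left 15934 genes for testing. Poly(A) RNA of 30 lung samples from male Sprague Dawley rats aged 8 weeks had been sequenced, with 3 libraries in each of 10 groups. All rats were fasted, anaesthetised with pentobarbital and operated on. Sham rats had the pancreas turned only, Con rats had sterile saline run backwards into the bile and pancreatic duct, and the SAP, DEX and Emo rats had 5.0% sodium taurocholate run in by that route. DEX rats then received dexamethasone (DEX) at 10 mg/kg into a vein. Emo rats received emodin, a plant anthraquinone, into the stomach. The labels give its dose as 40 mg/kg in one field and 10 mg/kg in another. Doses were due at 2 and 12 h, so that the rats killed at 6 h had only the first, and rats not given a drug had saline by vein and carboxymethylcellulose by stomach in its place. Lungs were taken at 6 or 24 h after surgery (Sham-6h to Emo-24h).

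Alveolar type 1 cells cover most of the gas exchange surface as thin sheets, next to the cuboidal alveolar type 2 cells that make surfactant and can replace them after injury. Ager encodes the receptor for advanced glycation end products, which is far more abundant in these cells than elsewhere in the lung and is shed into air space fluid and blood when the lung is injured. Several of the other genes are less specific. Cav1 is also strongly used by endothelium, Pdpn by lymphatic endothelium and mesothelium, and Hopx by heart muscle.

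The promoters of 4 of the genes are shown as examples, Ager and Clic5 because they passed in a comparison of SAP-24h with a control, Cav1 because it passed between the times, and Pdpn because its SAP-24h libraries lay below those of both controls. Each sequence is the 250 bases before the start annotated by RefSeq on the GRCr8 assembly, a different build from that of the count tables, written 5′ to 3′ on the strand of the gene. Capitals mark matches, on either strand, to motifs searched by their letters. GGAATG is the core bound by TEAD factors. CTCAAG is a core bound by NKX2-1. CCACCC is bound by Krüppel-like factors (KLF box). GGGCGG is the GC box of Sp1. Overlapping matches share 1 run of capitals.
Ager (chr20:4155686-4155935, minus strand): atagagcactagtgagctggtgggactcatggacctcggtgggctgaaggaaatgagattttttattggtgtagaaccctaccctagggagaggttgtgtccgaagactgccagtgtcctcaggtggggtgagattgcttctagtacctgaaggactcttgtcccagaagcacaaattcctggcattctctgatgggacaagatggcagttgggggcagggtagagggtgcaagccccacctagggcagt
Pdpn (chr5:160918960-160919209, minus strand): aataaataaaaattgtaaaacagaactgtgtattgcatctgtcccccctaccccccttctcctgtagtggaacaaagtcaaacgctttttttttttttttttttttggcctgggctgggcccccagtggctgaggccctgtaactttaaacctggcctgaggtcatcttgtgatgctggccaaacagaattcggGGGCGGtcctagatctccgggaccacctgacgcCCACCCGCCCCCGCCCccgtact
Cav1 (chr4:46606288-46606537, plus strand): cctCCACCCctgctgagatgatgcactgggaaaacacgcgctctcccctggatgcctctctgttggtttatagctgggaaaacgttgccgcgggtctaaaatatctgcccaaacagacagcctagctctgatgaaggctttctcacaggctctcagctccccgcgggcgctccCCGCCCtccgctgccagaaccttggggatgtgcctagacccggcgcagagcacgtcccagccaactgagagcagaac
Clic5 (chr9:24310965-24311214, minus strand): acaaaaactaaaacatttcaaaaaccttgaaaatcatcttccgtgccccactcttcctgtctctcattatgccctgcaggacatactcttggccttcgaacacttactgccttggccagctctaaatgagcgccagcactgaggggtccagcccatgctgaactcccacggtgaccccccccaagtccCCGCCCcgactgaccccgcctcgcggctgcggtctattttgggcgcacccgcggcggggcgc
The Ager window held none of the 4 motifs, whereas the Pdpn window held 3 GC boxes and 1 KLF box, of which the KLF box overlapped a GC box. All 7 genes were matched, Cav1 with 2 windows. GGAATG and CTCAAG were in 0 of the 8 windows, against 12.1% and 13.3% of all 33469 windows of this length. CCACCC was in 5 of 8 windows against 26.1%, and GGGCGG in 5 of 8 against 30.5%. Both Cav1 windows counted for CCACCC. These motifs are rich in G and C, and the 8 windows had 51.6% to 67.2% of these bases, against a median of 51.2% over all windows. The part of base content in these shares was not tested. The absence of a motif from a window says nothing about the binding of a factor.

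Library totals ranged from 16813949 to 34692306 counts. The 7 genes took from 0.329% of the counts (SAP-24h replicate 1) to 0.996% (Sham-24h replicate 2). SAP-24h replicate 1 and DEX-6h replicate 1 stood lowest, at -2.02 and -1.69 SD units in the mean standardised level of the 7 genes, a mean over the genes of log2 CPM scaled to SD units across 30 libraries. Fits without these 2 libraries, chosen after their values were seen, are given below beside the results that rest on them. Since they were the lowest in these same genes, leaving them out raises the mean level of the 7 genes in SAP-24h and DEX-6h. The direction of that shift was set by the choice, so that these fits show dependence on the 2 libraries and are no separate test. Surfactant genes were high in every library, with a summed level of 10 alveolar type 2 markers between 25316 and 48349 FPKM, as lung tissue should have. In whole tissue, fewer cells of a type and less RNA per cell cannot be told apart. The libraries of a group came, by the methods, from separate rats, although the labels tie no library to an animal.

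Per length, Ager and Hopx were the most abundant of the genes and Rtkn2 the least. The mean over 30 libraries was 1257 FPKM for Ager, 929 for Hopx, 378 for Cav1, 252 for Emp2, 206 for Pdpn, 100.0 for Clic5 and 7.42 for Rtkn2. Rtkn2 rested on 255 to 1709 counts per library, and every other gene on at least 5178. Between the highest and the lowest group mean the ratio was 2.36 for Cav1, 2.12 for Ager, 2.11 for Pdpn, 1.97 for Rtkn2, 1.87 for Clic5, 1.77 for Hopx and 1.35 for Emp2. Libraries of 1 group differed from each other more for most of these genes than for a usual gene. The SD within groups was 0.61 on the log2 scale for Rtkn2, 0.44 for Ager and for Pdpn, 0.36 for Cav1, 0.35 for Emp2, 0.30 for Clic5 and 0.25 for Hopx, against a median of 0.27 over all genes tested. Of the variance across libraries, 64.6% lay between groups for Cav1, 60.4% for Hopx and 59.5% for Clic5, against 57.0% for the median gene. The share was below that of the median gene for Ager (50.1%), Pdpn (47.9%), Rtkn2 (31.5%) and Emp2 (14.9%).

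**Figure D1:**
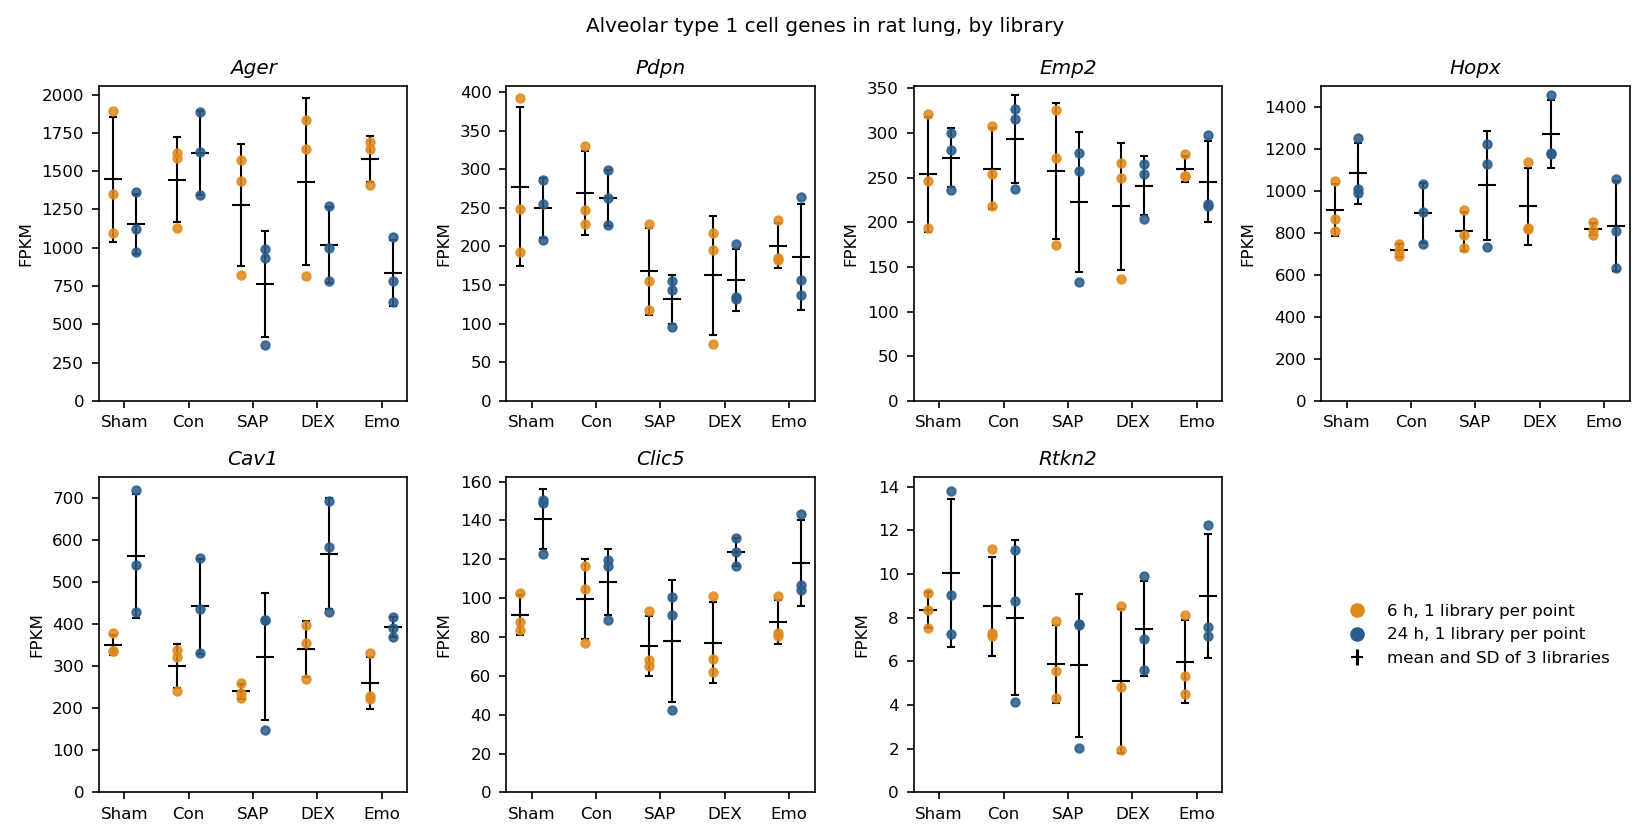
Level (FPKM, linear axis from 0) of the 7 genes in each library, by treatment, at 6 h (orange) and 24 h (blue), with black marks for the mean and SD of 3 libraries. Cav1 sat between 222 and 399 FPKM at 6 h, and 11 of the 15 libraries at 24 h lay above that range, while 1 library of SAP-24h lay below it at 148.

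The first comparison was between rats with pancreatitis and those without. At 24 h, Clic5 was lower in SAP than in Sham, Ager was lower in SAP than in Con, and no other member passed in either comparison. A gene is said here to have passed at a Benjamini-Hochberg adjusted p under 0.05 in edgeR's quasi-likelihood test, and to be differentially expressed (DEG) where it also changed at least 2-fold. Over 21 comparisons of 2 groups, 0 of 147 tests of the 7 genes gave a DEG, whereas 25.1% of all genes were DEGs in at least 1 of them. DESeq2 gave 0 and limma on log2(FPKM + 1) gave 2, Ager and Pdpn in SAP-24h vs Con-24h. At any fold, 6 of the 147 tests passed, 19 had an unadjusted p under 0.05, and 4 of the 7 genes passed at least once, against 62.1% of all genes. In single comparisons the share of all genes that passed ran from 0% (Sham-6h vs Con-6h) to 34.1% (Emo-24h vs Emo-6h). Those at an unadjusted p under 0.05 ran from 478 (Emo-24h vs Sham-24h) to 7021 (Emo-24h vs Emo-6h) of 15934 genes. The log2 fold changes of the members lay between -0.98 and 0.76.

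Ager, the receptor, had 368, 991 and 934 FPKM in the 3 SAP-24h libraries. It had 1342, 1889 and 1627 FPKM in Con-24h, and 1125, 1361 and 974 FPKM in Sham-24h. All SAP-24h values lay below all Con-24h values, and 2 of them lay below all Sham-24h values. The log2 fold change was -0.98 ± 0.33 (SE, n = 3 per group) against Con-24h, with an adjusted p of 0.0367 in edgeR's model of all groups. Against Sham-24h it was -0.49 ± 0.33, with an adjusted p of 0.341, and -0.16 without the 2 libraries that stood lowest. Without SAP-24h replicate 1 the difference from Con-24h was -0.67 and did not pass (adjusted p = 0.185), nor did it without Con-24h replicate 2 (-0.85, adjusted p = 0.14) or replicate 3 (-0.98, adjusted p = 0.0554). Beside this difference, the summed level of 6 neutrophil markers was 12463, 4428 and 16284 FPKM in SAP-24h and 949, 95.0 and 179 in Con-24h. In edgeR 6 of 6 markers passed as higher (median log2 fold change 4.92), where 22.1% of all genes passed. S100a8 and S100a9, which also encode ligands of the Ager receptor, made up most of each sum. The part of neutrophils in the difference of Ager was not tested.

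Pdpn encodes podoplanin, a mucin-like glycoprotein of the apical membrane. It measured 95.6, 143 and 155 FPKM in SAP-24h, against 255, 286 and 209 in Sham-24h and 228, 299 and 262 in Con-24h. The SAP-24h libraries lay below all of those, by -0.81 ± 0.33 and -0.89 ± 0.33 on the log2 scale, and neither difference passed (edgeR adjusted p = 0.11 and 0.0595). Without the 2 lowest libraries they were -0.65 and -0.76. In limma on FPKM the difference from Con-24h passed, at -1.02 (adjusted p = 0.0346). The summed level of 4 lymphatic endothelial markers was also low in SAP-24h, at 128, 191 and 163 FPKM against 307, 426 and 186 in Sham-24h and 360, 333 and 225 in Con-24h. Of these markers 0 passed against Sham-24h in edgeR (12.4% of all genes), with 1 at an unadjusted p under 0.05. Against Con-24h 1 of the 4 passed (22.1% of all genes), Ccl21, as lower (-1.25 ± 0.43, edgeR adjusted p = 0.0405). Without the 2 lowest libraries 0 of the 4 passed against Con-24h in edgeR (12.4% of all genes), with 1 at an unadjusted p under 0.05. None of the 4 was at 0 in any library. The 4 mesothelial markers summed to 13.4, 74.6 and 52.4 FPKM in SAP-24h, to 34.4, 59.3 and 29.0 in Sham-24h and to 51.7, 85.5 and 68.7 in Con-24h. The part of these cells in the Pdpn values was not tested. At 6 h Pdpn had the largest difference of the 7 genes between SAP and Sham, with 155, 118 and 229.6 FPKM against 248, 192 and 392, which overlapped (log2 fold change -0.69 ± 0.33, edgeR adjusted p = 0.386).

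Emp2 encodes a tetraspan protein of the cell membrane and varied least between groups. Its level was 133, 278 and 257 FPKM in SAP-24h and 300.0, 281 and 236 in Sham-24h. Only replicate 1 of SAP-24h lay outside the range of the other group, and the log2 fold change was -0.18 ± 0.26 (edgeR adjusted p = 0.704), turning to 0.08 without the 2 lowest libraries.

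Cav1 encodes caveolin-1, the scaffold of caveolae. In SAP-24h it measured 148, 409 and 409.7 FPKM, and in Sham-24h 541, 719.6 and 428. The SAP-24h libraries lay below all those of Sham-24h, although 2 of them came close to the lowest (log2 fold change -0.70 ± 0.27, edgeR adjusted p = 0.09). In limma on FPKM it passed, at -0.91 (adjusted p = 0.0436). Without SAP-24h replicate 1 and DEX-6h replicate 1 the log2 fold change was -0.36. At 6 h Cav1 was at 224, 259.6 and 237 FPKM in SAP and at 379, 336 and 337 in Sham, again without overlap and again without passing (-0.50 ± 0.27, edgeR adjusted p = 0.453).

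Clic5, a chloride intracellular channel family protein that links the membrane to ezrin and actin, had 42.3, 101 and 91.4 FPKM in SAP-24h. In Sham-24h it had 151, 149 and 123, and in Con-24h 88.8, 117 and 119.7. The libraries of SAP-24h lay below all of Sham-24h and overlapped those of Con-24h. The log2 fold change against Sham-24h was -0.74 ± 0.23 with an edgeR adjusted p of 0.037, and against Con-24h it was -0.36 ± 0.23 with an adjusted p of 0.268. Without SAP-24h replicate 1 the difference from Sham-24h was -0.46 and did not pass (adjusted p = 0.196), nor did it without Sham-24h replicate 1 (-0.69, adjusted p = 0.103) or replicate 2 (-0.68, adjusted p = 0.115).

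Rtkn2 was the gene with the fewest counts. Its 3 values were 2.05, 7.72 and 7.67 FPKM in SAP-24h and 9.06, 7.27 and 13.8 in Sham-24h, so that the groups overlapped (log2 fold change -0.69 ± 0.44, edgeR adjusted p = 0.321, and -0.29 without the 2 lowest libraries). Hopx, a homeodomain-only cofactor of transcription that does not itself bind DNA, measured 733, 1222 and 1129 FPKM in SAP-24h and 992, 1252 and 1011 in Sham-24h (log2 fold change 0.04 ± 0.20, edgeR adjusted p = 0.928, and 0.21 without the 2 lowest libraries).

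In SAP-24h vs Sham-24h, then, 1 of the 7 genes passed, and it was lower. Of all genes, 12.4% passed in that comparison, 6.80% higher and 5.62% lower, so that the share of members that passed was close to the background. Their median log2 fold change was -0.69, against -0.03 over all genes tested, and 6 of 7 lay below 0. In the fit without SAP-24h replicate 1 and DEX-6h replicate 1 the median was -0.29, against -0.01 over all genes, 5 of 7 lay below 0 and none passed in edgeR, with 1 at an unadjusted p under 0.05. The share of all genes that passed also fell in that fit, from 12.4% to 5.31%. In SAP-24h vs Con-24h 1 of 7 passed (22.1% of all genes), with a median of -0.36 against -0.01. Without those 2 libraries 0 of 7 passed in edgeR (12.4% of all genes, and 3 of 7 at an unadjusted p under 0.05), with a median of -0.08 against -0.05. At 6 h, edgeR called 0 of the 7 in SAP vs Sham (0.270% of all genes) and 0 in SAP vs Con (0.207%). No member had an unadjusted p under 0.05 at 6 h in either comparison, and DESeq2 and limma called 0 as well. The medians were -0.23 and -0.26. No member's effect of SAP against Sham was shown to differ between 24 and 6 h, since the interaction passed for 0 of 7 genes in edgeR (0.0314% of all genes), DESeq2 and limma, with 0 of 7 at an unadjusted p under 0.05 in edgeR. The largest was that of Clic5 (-0.51 ± 0.32, edgeR adjusted p = 0.546), which was -0.22 without the 2 lowest libraries. The median over the members turned from -0.23 to 0.04 in that fit, and 5 of 7 lay above 0 where 1 of 7 had.

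Markers of other cell types were measured in the same libraries. The summed FPKM of 6 neutrophil markers was 12463, 4428 and 16284 in SAP-24h and 1303, 193 and 9235 in Sham-24h, and 0 of 6 passed in edgeR, with 3 at an unadjusted p under 0.05 (median log2 fold change 1.75). Of these markers, Fpr1 was at 0 in 1 of 30 libraries and the others in none. The 10 alveolar type 2 markers summed to 28593, 48349 and 35529 FPKM in SAP-24h and to 35589, 33837 and 25316 in Sham-24h. Among them only Sftpb, a surfactant protein gene, passed, and it was higher (log2 fold change 0.81 ± 0.24, edgeR adjusted p = 0.0289, and 1.00 without the 2 lowest libraries, adjusted p = 0.0235). At an unadjusted p under 0.05 there were 5 of the 10, against 4532 of 15934 genes. Without the 2 libraries there were 7 of 10, with a median log2 fold change of 0.49, and Sftpd passed as well (0.97, adjusted p = 0.0377). Of all genes, 5.31% passed at an adjusted p under 0.05 in that fit. Endothelial markers, of which 1 of 6, Kdr, passed and was lower (it did not pass without the 2 lowest libraries, adjusted p = 0.139), summed to 918, 909 and 960 FPKM against 888, 1076 and 833. SAP-24h replicate 1, lowest in the 7 genes, was also lowest of its group in the alveolar type 2 sum, in the 4 pan-epithelial markers (259 against 375 FPKM in each of the others) and in the 4 mesothelial markers (13.4 against 74.6 and 52.4 FPKM), but not in the endothelial sum. The part of these cell types in the results was not tested.

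**Figure D2:**
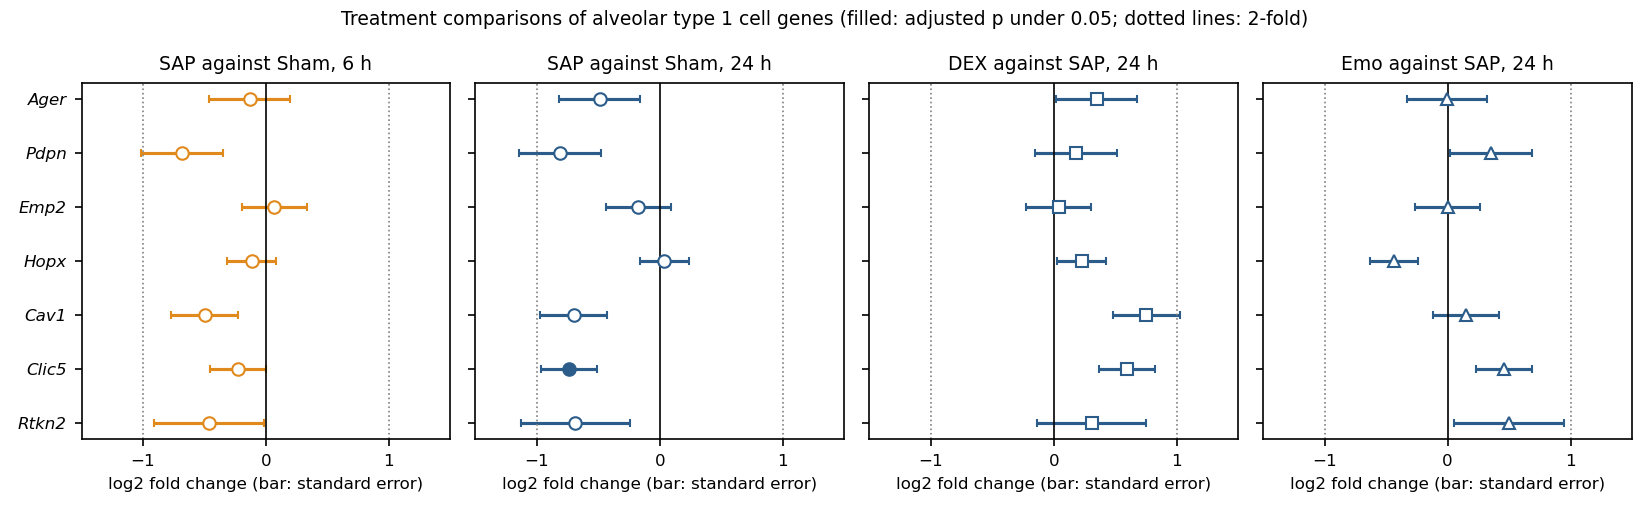
Log2 fold change (x axis; bars, standard error) of the 7 genes in SAP against Sham at 6 and 24 h and in each drug group against SAP at 24 h, from edgeR with n = 3 per group. Only Clic5 in SAP-24h vs Sham-24h passed (filled symbol, -0.74), and in DEX-24h vs SAP-24h the 7 points lay above 0, between 0.04 and 0.75, of which 5 stayed above 0 in a fit without SAP-24h replicate 1 and DEX-6h replicate 1 (not drawn).

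The drug groups were then set against SAP. At 24 h the 7 genes were all above 0 in DEX vs SAP, with a median log2 fold change of 0.31 against 0.00 over all genes, but edgeR called 0 of 7, where 7.71% of all genes passed, and 2 of 7 had an unadjusted p under 0.05. DESeq2 and limma called 0 as well. Those 2 genes were Cav1 and Clic5. Cav1 measured 582, 691 and 428 FPKM in DEX-24h, above all of SAP-24h (log2 fold change 0.75 ± 0.27, edgeR adjusted p = 0.0915). Clic5 measured 124, 131 and 116 FPKM in DEX-24h, above all of SAP-24h (0.59 ± 0.23, edgeR adjusted p = 0.115). These differences share the SAP-24h libraries with those of SAP vs Sham above. Without SAP-24h replicate 1 and DEX-6h replicate 1, 5 of 7 lay above 0 and the median was 0.05, against 0.02 over all genes. Cav1 was then at 0.44, Clic5 at 0.33, Ager at 0.05 and Pdpn at 0.05, while Emp2 (-0.18) and Rtkn2 (-0.06) lay below 0, and 0 of 7 had an unadjusted p under 0.05. In that fit 4.8% of all genes passed. The neutrophil sum was 2205, 1011 and 2966 FPKM in DEX-24h, below all 3 values of SAP-24h given above, with 0 of 6 markers passed in edgeR and 3 at an unadjusted p under 0.05. S100a8 and S100a9 made up most of each sum. Those genes and Mmp8 lay below all SAP-24h libraries, whereas Csf3r, Cxcr2 and Fpr1 overlapped them. The part of neutrophils in the differences of the members was not tested. Ager (785, 1275 and 997 FPKM) and Pdpn (135, 203 and 132 FPKM) in DEX-24h overlapped SAP-24h.

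In Emo-24h, Ager measured 645, 1072 and 786 FPKM, overlapping SAP-24h, and the log2 fold change was -0.01 ± 0.33. Clic5 measured 107, 143 and 104 FPKM, above all of SAP-24h (0.46 ± 0.23, edgeR adjusted p = 0.205, and 0.17 without the 2 lowest libraries). Hopx went the other way, at 634, 808 and 1057 FPKM (-0.44 ± 0.20, edgeR adjusted p = 0.161, and -0.61 without the 2 lowest libraries, adjusted p = 0.0908). In that fit Ager was at -0.33 and Cav1 turned from 0.15 to -0.18, and the members' median turned from 0.15 to -0.18. In Emo-24h vs SAP-24h edgeR called 0 of the 7 (8.59% of all genes), with 1 of 7, Hopx, at an unadjusted p under 0.05. Without Emo-24h replicate 3 Hopx passed (-0.71, edgeR adjusted p = 0.0378). At 6 h edgeR called 0 in DEX vs SAP (0.979%) and 0 in Emo vs SAP (0.0314%), with none at an unadjusted p under 0.05. DESeq2 and limma called 0 in all 3. The effect of a drug against SAP was not shown to differ between 24 and 6 h for any member, since 0 of 7 passed in the interaction for DEX (0.169% of all genes) and 0 for Emo (3.57%) in edgeR, DESeq2 and limma, with 0 at an unadjusted p under 0.05 in edgeR. In the fit without the 2 lowest libraries the members' median turned from 0.25 to -0.21 in the interaction for DEX and from 0.04 to -0.25 in that for Emo, where 1 of 7 then had an unadjusted p under 0.05, and 0 passed in either.

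The drugs were also set against each other, and Hopx was the member that passed. At 24 h Hopx measured 1174, 1182 and 1458 FPKM in DEX and 634, 808 and 1057 FPKM in Emo. All Emo-24h libraries lay below all DEX-24h libraries, and the log2 fold change of Emo against DEX was -0.66 ± 0.20 (edgeR adjusted p = 0.0374). That was 1 of 7 members, against 8.89% of all genes, and the call was lost without DEX-24h replicate 2 (adjusted p = 0.0704) or 3 (0.134) and without Emo-24h replicate 1 (0.221) or 2 (0.117). At an unadjusted p under 0.05 there were 2 of 7, Hopx and Cav1. Cav1 measured 369, 417 and 390 FPKM in Emo-24h, below all 3 values of DEX-24h, and did not pass (-0.60 ± 0.27, edgeR adjusted p = 0.193). The 4 pan-epithelial markers summed to 359, 395 and 657 FPKM in DEX-24h and to 381, 322 and 343 in Emo-24h, and 0 of 4 passed in edgeR, with 3 at an unadjusted p under 0.05 (median log2 fold change -0.50). The 6 heart muscle markers summed to 86.8, 14.9 and 102 FPKM in DEX-24h and to 177, 80.0 and 126 in Emo-24h, and 0 of 6 passed, with 0 at an unadjusted p under 0.05. The part of these cells in the Hopx difference was not tested. At 6 h, with 0 of 7 passed (2.88% of all genes) and none at an unadjusted p under 0.05, Hopx stood at 818, 1137 and 823 FPKM in DEX and at 815, 792 and 850.3 in Emo, which overlapped.

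Set against Sham, edgeR called none of the members in either drug group at either time. At 6 h 9.75% of all genes passed in DEX vs Sham and 3.26% in Emo vs Sham, and among the members only Pdpn in DEX-6h had an unadjusted p under 0.05, at 74.3, 218 and 196 FPKM (log2 fold change -0.74 ± 0.33, edgeR adjusted p = 0.167). DEX-6h replicate 1 is the lowest of these, and without it and SAP-24h replicate 1 the log2 fold change was -0.39 (edgeR adjusted p = 0.51). At 24 h 6.97% of all genes passed in DEX vs Sham. In Emo-24h vs Sham-24h no gene of the whole table passed in edgeR (0%, with 478 genes at an unadjusted p under 0.05, and 0 passed in DESeq2 and 0 in limma), and the 7 members lay below 0, from -0.55 for Cav1 to -0.18 for Emp2. No member had an unadjusted p under 0.05 against Sham-24h in either drug group, and DESeq2 and limma called 0 of the members in these 4 comparisons. Between the controls, Sham vs Con, 0 of 7 passed at 6 h (0% of all genes, with 1372 genes at an unadjusted p under 0.05, and 10 passed in DESeq2 and 0 in limma) and 0 of 7 at 24 h (9.85%) in edgeR, DESeq2 and limma, with 0 of 7 at an unadjusted p under 0.05 in edgeR at either time.

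The second question was how the genes differed between 6 and 24 h. Averaged over the 5 treatments, Cav1, Clic5 and Hopx were higher at 24 h and Ager was lower, so that the 7 genes did not move as 1 group. These 4 of 7 compare with 48.2% of all genes that passed, 24.8% higher and 23.4% lower, which is close to the members' share. All 4 calls held in each of 30 fits that left out 1 library and in each of 7 other settings.

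Cav1 had from 222 to 399 FPKM over the 15 libraries at 6 h, with a median of 321, and from 148 to 719.6 at 24 h, with a median of 428. Of the libraries at 24 h, 11 lay above all at 6 h, and SAP-24h replicate 1 lay below them all. The average log2 fold change was 0.62 ± 0.12 (edgeR adjusted p = 2.28e-04), and all 5 treatments lay above 0, from 0.50 in SAP to 0.76 in DEX. These ends depended on the 2 lowest libraries, without which Cav1 was at 0.81 in SAP and 0.60 in DEX. Within DEX alone the change passed too (edgeR adjusted p = 0.0429), but not in 5 of 6 fits without 1 of its libraries, from 0.0612 without DEX-6h replicate 3 to 0.176 without DEX-24h replicate 2 (0.161, 0.0809 and 0.0899 without DEX-6h replicates 1 and 2 and DEX-24h replicate 1).

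Clic5 ran from 61.7 to 117 FPKM at 6 h, median 83.7, and from 42.3 to 151 at 24 h, median 117, with 7 of the 15 libraries at 24 h above all those at 6 h. The average log2 fold change was 0.41 ± 0.10 (edgeR adjusted p = 0.00228), again above 0 in all 5 treatments, from 0.13 in SAP to 0.71 in DEX, and at 0.39 and 0.56 without the 2 lowest libraries. In DEX the change passed on its own (edgeR adjusted p = 0.0258) but not without DEX-6h replicate 1 (adjusted p = 0.12) or 2 (0.0958), nor without DEX-24h replicate 1 (0.0573) or 2 (0.0762). Hopx ran from 689 to 1137 FPKM at 6 h, median 815, and from 634 to 1458 at 24 h, median 1033. Its average log2 fold change was 0.31 ± 0.09 (edgeR adjusted p = 0.00658), and it was above 0 in 4 of 5 treatments, the exception being Emo (-0.01).

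Ager ran from 814 to 1893 FPKM at 6 h, median 1570.5, and from 368 to 1889 at 24 h, median 997. Of the libraries at 24 h, 4 lay below all those at 6 h. The average log2 fold change was -0.44 ± 0.15 (edgeR adjusted p = 0.0163), with 4 of 5 treatments below 0 (Sham -0.31, SAP -0.67, DEX -0.47, Emo -0.96) and Con at 0.20. Without the 2 lowest libraries SAP was at -0.38 and DEX at -0.77. The change was largest in Emo, from 1408, 1642 and 1692 FPKM at 6 h to 645, 1072 and 786 at 24 h without overlap (-0.96 ± 0.33, edgeR adjusted p = 0.0278). Leaving out 1 library moved it between -1.19 and -0.79, and it did not pass without Emo-6h replicate 3 (adjusted p = 0.0656) or without Emo-24h replicate 1 (0.116) or 3 (0.0669). The remaining genes did not pass on average, with log2 fold changes of 0.29 ± 0.20 for Rtkn2, 0.05 ± 0.12 for Emp2 and -0.12 ± 0.15 for Pdpn.

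**Figure D3:**
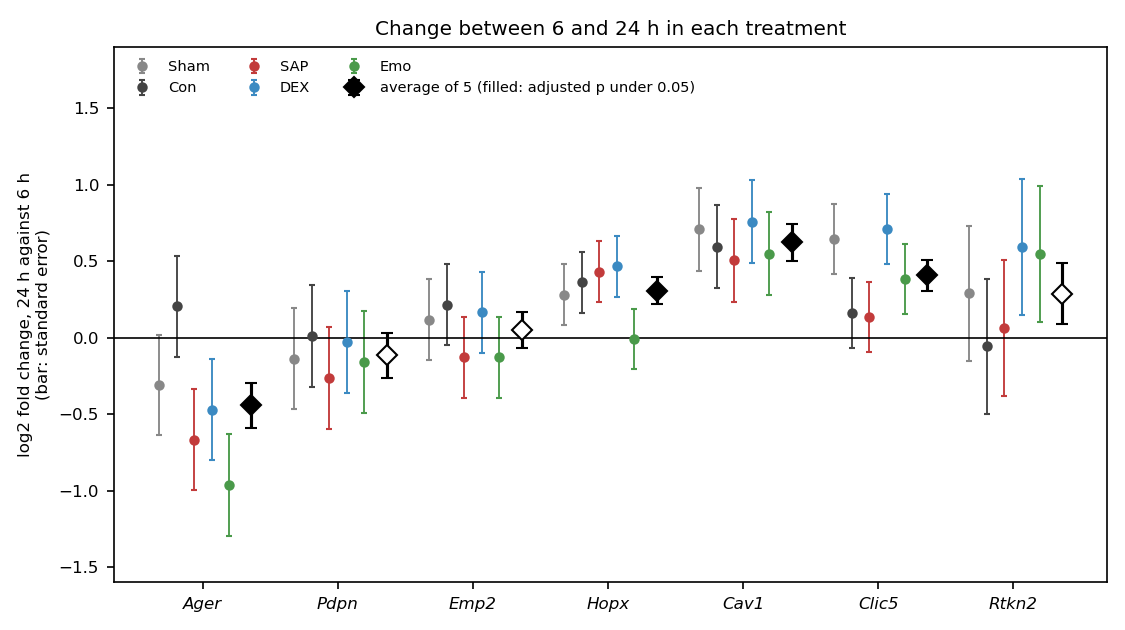
Log2 fold change between 24 and 6 h (y axis; bars, standard error) of each gene in each treatment (coloured circles, n = 3 per group) and averaged over 5 treatments (diamonds, filled where the adjusted p was under 0.05). Cav1 and Clic5 lay above 0 in all 5 treatments, while Ager lay below 0 in all but Con.

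The time difference of Ager was then split by whether taurocholate had been given. Averaged over SAP, DEX and Emo its log2 fold change was -0.70 ± 0.19 (edgeR adjusted p = 0.00425), and over Sham and Con it was -0.05 ± 0.23 (edgeR adjusted p = 0.924), a mean of Sham at -0.31 and Con at 0.20. The difference between these averages, tested as an interaction, was -0.65 ± 0.30, with an unadjusted p of 0.0414 and an edgeR adjusted p of 0.227, so that it was not shown after correction. It was the only 1 of 7 interactions at an unadjusted p under 0.05, 0 of 7 passed in edgeR, DESeq2 and limma, and 1.96% of all genes did in edgeR. Cav1 had like values in both, 0.60 ± 0.16 with taurocholate (edgeR adjusted p = 0.00298) and 0.65 ± 0.19 without (0.0632), and their difference was -0.05 ± 0.25. In all, 4 of 7 passed over SAP, DEX and Emo (48.0% of all genes), the other 2 being Clic5 (0.41 ± 0.13, edgeR adjusted p = 0.0134) and Hopx (0.30 ± 0.11, edgeR adjusted p = 0.0362). Hopx alone of the 4 lost its call when 1 library was left out, in 10 of 18 fits (adjusted p up to 0.101, without Emo-24h replicate 3), and it did not pass in limma (0.0583). Over Sham and Con edgeR called 0 of 7 (2.89%), with 3 of 7 at an unadjusted p under 0.05, and DESeq2 called 1 and limma 0. Without Con-24h replicate 1 edgeR called 1, Cav1 (0.73, adjusted p = 0.0482). Within single treatments the members that passed were 0 in Sham (0.992% of all genes), 0 in Con (0.0126%), 0 in SAP (6.01%), 2 in DEX (25.9%) and 1 in Emo (34.1%). In Sham, Con and SAP, 2, 1 and 1 of 7 members had an unadjusted p under 0.05, and DESeq2 and limma called 0.

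Markers of other cells were set beside these times, with 48.2% of all genes passing in the average over treatments. All 5 red blood cell markers fell, their summed level ranging from 970.2 to 12603 FPKM at 6 h and from 372 to 4859 at 24 h. The endothelial sum ranged from 1051 to 1725 FPKM at 6 h and from 826 to 1351 at 24 h, and of its 6 markers 2 rose and 2 fell. No marker of these 2 lists was at 0 in any library. Alveolar type 2 markers summed to between 26662 and 41486 FPKM at 6 h and to between 25316 and 48349 at 24 h, with 3 of 10 higher and 1 lower, a share (40.0%) below that of all genes. Without the 2 lowest libraries 2 of the 10 passed as higher and 1 as lower, against 47.1% of all genes that passed. All 5 fibroblast markers passed, with Tcf21 and Dcn higher at 24 h and Col1a1, Col1a2 and Pdgfra lower, and their sum ranged from 205 to 397 FPKM at 6 h and from 199 to 394 at 24 h. Of these, Col1a2 was measured near the floor, at 0.03 to 0.87 FPKM over all libraries. The part of these cells in the time differences was not tested.

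The 21 pairs of genes were compared by their correlation. Pearson's r on log2 CPM over 30 libraries, which share groups and depth, was 0.73 between Ager and Pdpn, 0.73 between Ager and Emp2, 0.77 between Pdpn and Emp2, 0.84 between Cav1 and Clic5 and 0.75 between Clic5 and Rtkn2. Ager had an r of 0.14 with Cav1, 0.24 with Clic5 and 0.05 with Hopx. Taken as deviations from group means, those 3 values were 0.66, 0.75 and 0.60, and Ager and Emp2 reached 0.95. Of the 21 pairs, 18 had a higher r within groups than across libraries, and Cav1 with Hopx (0.62 to 0.48), Pdpn with Rtkn2 (0.61 to 0.58) and Cav1 with Clic5 (0.84 to 0.83) had a lower one. Without the 2 lowest libraries the within-group values of Ager with Cav1, Clic5, Hopx and Emp2 were 0.41, 0.58, 0.49 and 0.92, and 14 of 21 pairs were higher within groups, where r ran from -0.13 to 0.92 against -0.16 to 0.82 across libraries. Without SAP-24h replicate 1 and DEX-6h replicate 1, r over the remaining libraries was 0.70 for Ager and Pdpn, 0.66 for Ager and Emp2 and 0.82 for Cav1 and Clic5, whereas Ager with Cav1 was -0.14 and Ager with Clic5 -0.13.

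**Figure D4:**
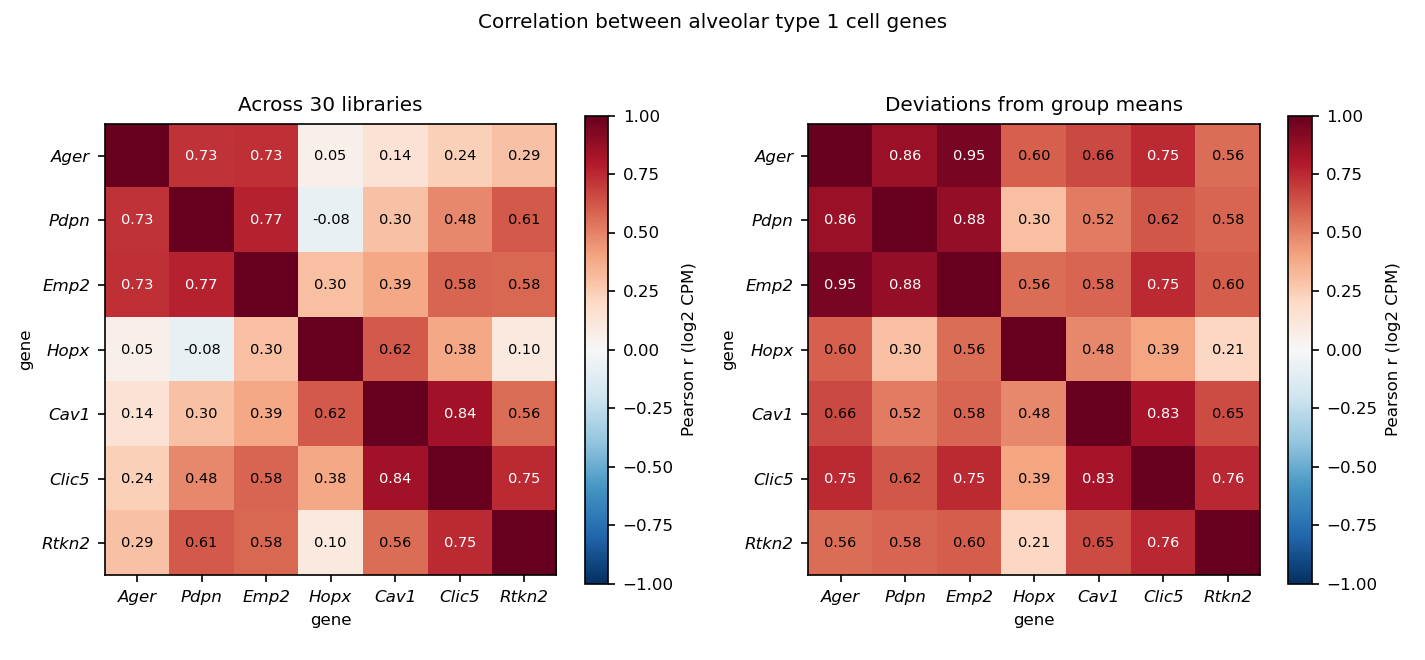
Pearson's r of log2 CPM between each pair of the 7 genes, across 30 libraries (left) and for deviations of libraries from their group mean (right); the colour scale runs from -1 to 1. Ager with Cav1 was 0.14 across libraries and 0.66 within groups, while Cav1 with Clic5 was 0.84 and 0.83.

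**Figure D5:**
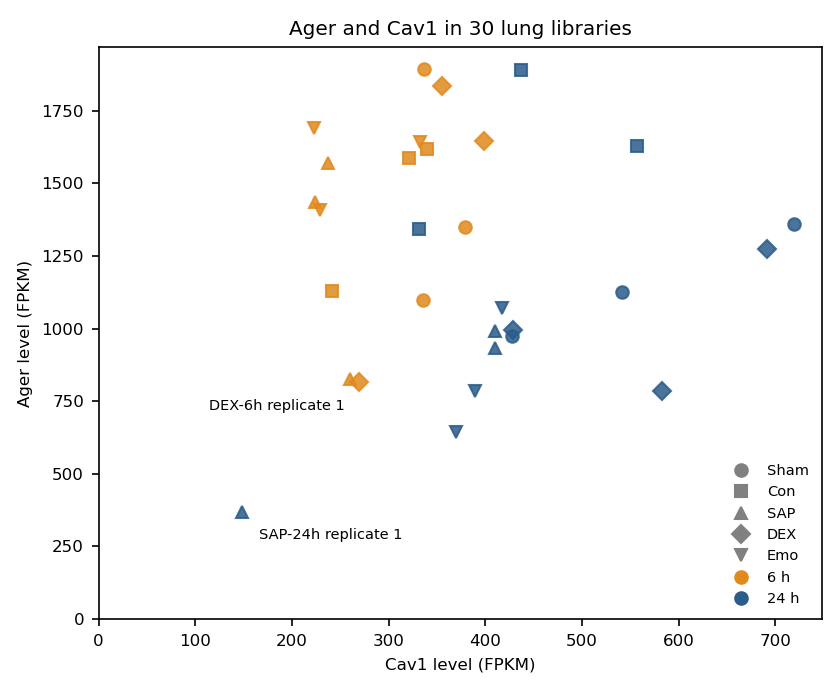
Ager level against Cav1 level (both FPKM, axes from 0) in 30 libraries, with orange for 6 h, blue for 24 h and a symbol for each treatment. Libraries at 6 h lay at 222 to 399 FPKM of Cav1 and 814 to 1893 of Ager, 11 of the 15 libraries at 24 h lay to the right of these, and SAP-24h replicate 1 lay lowest in both.

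Among 12362 other genes with a mean of at least 1 FPKM, those closest to the mean standardised level of the 7 genes over 30 libraries were Scnn1g (r = 0.87), Sema3e (0.86), RGD1310262 (0.84), Slc16a12 (0.83) and Scnn1b (0.82). The ranking depended on the measure, since 2 of the 5 highest and 2 of the 5 lowest were shared with the ranking by Spearman's rank correlation. Scnn1g and Scnn1b encode subunits of the epithelial sodium channel that clears alveolar fluid, Sema3e a secreted semaphorin and Slc16a12 a membrane transporter. Scnn1g had a mean of 25.3 ± 4.91 FPKM (SD, n = 3) in Sham-24h and 17.9 ± 9.47 in SAP-24h, with a log2 fold change of -0.39 ± 0.36 that did not pass (edgeR adjusted p = 0.512). At the other end stood Ifitm1 (r = -0.85), Selp (-0.82), Adgrg1 (-0.77), Stat3 (-0.77) and Mrps6 (-0.76). Selp encodes P-selectin, which captures leukocytes on activated endothelium, Ifitm1 an interferon-induced membrane protein and Stat3 a transcription factor of cytokine signalling. In SAP-24h vs Sham-24h 3 of these 5 passed as higher, namely Selp (3.82 ± 0.82, edgeR adjusted p = 0.00536), Adgrg1 (1.11 ± 0.29, edgeR adjusted p = 0.0177) and Stat3, while Ifitm1 (adjusted p = 0.138) and Mrps6 (0.328) did not. Of all genes, 6.80% passed as higher in that comparison. The 5 genes at each end were chosen by r over these same libraries, so that their differences are no separate test. Among the 5 genes with the highest r the smallest adjusted p was 0.07, for Sema3e (-1.03 ± 0.37). Selp measured 50.5, 5.11 and 6.48 FPKM in SAP-24h and 1.99, 0.72 and 2.31 in Sham-24h, so that the size of its fold change leaned on SAP-24h replicate 1. Without the 2 lowest libraries Selp did not pass (adjusted p = 0.0704) and Adgrg1 did (0.0406). Stat3 rose from 39.8 ± 6.16 FPKM in Sham-24h to 88.0 ± 39.1 in SAP-24h (log2 fold change 1.30 ± 0.24, edgeR adjusted p = 0.00203), and by 0.82 without the 2 lowest libraries (adjusted p = 0.0117). Without SAP-24h replicate 1 and DEX-6h replicate 1, r was 0.79 for Scnn1g, -0.81 for Ifitm1 and -0.62 for Stat3.

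Of 13 further marker genes of the alveolar type 1 cell, 4 passed as lower in SAP-24h than in Sham-24h, against 5.62% of all genes, none passed as higher, and the median log2 fold change was -0.39. They were Aqp5, a water channel, from 201 to 63.7 FPKM (-1.55 ± 0.50, edgeR adjusted p = 0.0421), Akap5, a kinase anchor (-1.17 ± 0.39), Cav2, the partner of caveolin-1 (-1.01 ± 0.26), and Vegfa, a growth factor for endothelium (-0.83 ± 0.20). The 13 genes summed to 509 FPKM in SAP-24h replicate 1 and to 963 and 1013 in the others of its group, against 1326, 1361 and 1041 in Sham-24h. Without it and DEX-6h replicate 1, 0 of 13 passed in edgeR (4 at an unadjusted p under 0.05), with Aqp5 at -1.17, Akap5 at -0.71, Cav2 at -0.71 and Vegfa at -0.78 (adjusted p from 0.0518 to 0.14). Of all genes, 5.31% passed in that fit. In SAP-24h vs Con-24h 2 of the 13 passed as lower (15.4%, below the 22.1% of all genes), Aqp5 (-1.85 ± 0.50, edgeR adjusted p = 0.0114) and Clic3 (-1.09 ± 0.30, edgeR adjusted p = 0.013), with a median of -0.42. Without the 2 libraries Aqp5 alone passed (-1.52, edgeR adjusted p = 0.0431), where 12.4% of all genes did. Averaged over treatments, 3 of the 13 were higher at 24 than at 6 h and 2 lower, a share of 38.5% against 48.2% of all genes, with Cav2 at 0.87 ± 0.12 and the binding protein gene Igfbp2 at -1.07 ± 0.17 the furthest apart. In DEX-24h vs SAP-24h, 1 of the 13 passed (7.69% against 7.71% of all genes), Cav2 (0.85 ± 0.26, edgeR adjusted p = 0.0447), and it did not pass without the 2 libraries (0.57, adjusted p = 0.177). In Emo-24h vs SAP-24h 1 of the 13 passed as well (7.69% against 8.59% of all genes). In DEX-6h vs Sham-6h 3 of the 13 passed (23.1% against 9.75% of all genes), and without the 2 libraries only 1 did, as lower, against 5.47% of all genes.

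The coat of caveolae, 7 genes with Cav1 and Cav2 among them, had 2 lower and 1 higher in SAP-24h than in Sham-24h (42.9%, against 12.4% of all genes). Beside Cav2, Sdpr (cavin-2) was lower, from 163 to 61.8 FPKM (-1.29 ± 0.27, edgeR adjusted p = 0.00434), and Pacsin2, which bends membranes, was higher (0.50 ± 0.11). Without the 2 libraries Sdpr (-1.002, adjusted p = 0.0258) and Pacsin2 (0.48, adjusted p = 0.0245) passed and Cav2 did not. In SAP-24h vs Con-24h 4 of the 7 passed (57.1% against 22.1%), with Prkcdbp (-0.99 ± 0.21), Ehd2 (-0.98 ± 0.21) and Ptrf (-0.83 ± 0.21) lower and Pacsin2 higher (0.46 ± 0.11). In DEX-24h vs SAP-24h, 2 of the 7 were higher (28.6% against 7.71%), Cav2 and Prkcdbp (cavin-3), the second from 54.8 to 151 FPKM (1.38 ± 0.21, edgeR adjusted p = 3.98e-04), with Prkcdbp at 1.28 without the 2 libraries (adjusted p = 0.00484). Between 6 and 24 h Cav1, Cav2 and Sdpr rose and no gene of the coat fell (42.9% against 48.2%).

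Of 8 genes for ligands of the Ager receptor, 0 passed in SAP-24h vs Sham-24h in edgeR, with none at an unadjusted p under 0.05. In SAP-24h vs Con-24h, where Ager was called, 3 of the 8 passed (37.5% against 22.1% of all genes). S100a8 (5.19 ± 1.18) and S100a9 (4.65 ± 1.13), which are also on the neutrophil list, were higher, and S100a1 was lower (-0.69 ± 0.23, edgeR adjusted p = 0.0312), although S100a1 did not pass without the 2 libraries (adjusted p = 0.136). The 8 genes summed to 15156, 8651 and 19752 FPKM in SAP-24h and to 4791, 4307 and 4810 in Con-24h, without overlap. In DEX-24h vs SAP-24h S100a6 rose from 1827 to 4083 FPKM (log2 fold change 1.08 ± 0.22, edgeR adjusted p = 0.00364, and 0.96 without the 2 libraries, adjusted p = 0.0217), 1 of the 8 (12.5% against 7.71% of all genes). On average over treatments 2 of the 8, S100a6 and S100a4, were higher at 24 h, a lower share than the 48.2% of all genes that passed.

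Of 6 target genes of YAP, a coactivator that acts with TEAD factors and is needed for the alveolar type 1 state, 2 passed in SAP-24h vs Sham-24h (33.3%, against 12.4% of all genes). Ctgf was lower, from 143 to 45.1 FPKM (-1.56 ± 0.37, edgeR adjusted p = 0.0101), and without the 2 libraries it stood at -1.40 (adjusted p = 0.0571). Cyr61 measured 241, 20.8 and 32.5 FPKM in SAP-24h and 19.7, 18.0 and 20.6 in Sham-24h, so that its call as higher (2.53 ± 0.76, edgeR adjusted p = 0.0318) rested on replicate 1. Without the 2 libraries it was at 0.55 and did not pass (adjusted p = 0.604). Against Con-24h 1 of the 6 passed (16.7%, below the 22.1% of all genes), Lats2 at 0.41 ± 0.15. Without the 2 libraries 0 of 6 did in edgeR (12.4% of all genes), with 1 at an unadjusted p under 0.05. In DEX-24h vs SAP-24h 2 of the 6 passed (33.3% against 7.71%), and both were higher. One was Amotl2 (0.70 ± 0.20, edgeR adjusted p = 0.0332), which did not pass without the 2 libraries (0.64, adjusted p = 0.116). The other was Ctgf, at 194 FPKM in DEX-24h (2.03 ± 0.38, edgeR adjusted p = 0.00232, and 1.89 without the 2 libraries, adjusted p = 0.0164).

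Of 10 genes of the transitional state that alveolar type 2 cells pass through on the way to type 1, 2 passed in SAP-24h vs Sham-24h (against 12.4% of all genes), Krt18 as higher (0.53 ± 0.17) and Krt19 as lower (-1.34 ± 0.35). Without the 2 libraries Krt18 passed (0.69, adjusted p = 0.0259) and Krt19 did not (-1.24, adjusted p = 0.0556). Against Con-24h 1 of the 10 passed, below the background of 22.1%, and it was Krt19 (-1.77 ± 0.35). In DEX-24h vs SAP-24h 1 of the 10 passed, near the background of 7.71%, and 7 of 10 had an unadjusted p under 0.05, against 3679 of 15934 genes. The gene that passed was Krt19, higher by 1.53 ± 0.35 and by 1.46 without the 2 libraries (adjusted p = 0.0312). In that fit Areg passed too (3.29, adjusted p = 0.0346, against 1.95 ± 0.77 and an adjusted p of 0.124 with all libraries), 5 of 10 had an unadjusted p under 0.05 and the median was 0.60. Areg measured 4.02, 6.77 and 32.2 FPKM in DEX-24h and 7.18, 1.3 and 1.54 in SAP-24h, so that its value leaned on DEX-24h replicate 3. Among 8 factors of epithelial fate 1 passed in SAP-24h vs Sham-24h, Klf5 at 0.46 ± 0.15, a share (12.5%) near the 12.4% of all genes, and without the 2 libraries it did not pass (adjusted p = 0.0572). Against Con-24h 2 of the 8 passed, near the background of 22.1%, Tead1 (0.999 ± 0.26) and Klf5 (0.64 ± 0.15). Without the 2 libraries only 1 of the 8 passed against Con-24h, as higher, where 12.4% of all genes passed.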

How the data were processed

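Libraries of poly(A) RNA were made and sequenced by the authors, who trimmed the reads with FASTX-Toolkit, aligned them to the rat genome (Ensembl version 6) with TopHat2 allowing 2 mismatches and kept uniquely mapped reads. By the paper's mapping summary, the uniquely mapped share was lower in every SAP, DEX and Emo library than in every Sham and Con library. The part of this in the differences from Sham and Con was not tested. The counting program was not given in the sources used here. The deposited counts are raw reads per gene, with no normalization. The FPKM values, deposited with 2 decimals, were scaled by the authors for gene length and library size. Genes with too few counts were removed (filterByExpr, at least 10 counts and 15 in total), and all 30 libraries were fitted in 1 model of 10 groups with edgeR 4.0.16 in R 4.3.3 (TMM scaling, quasi-likelihood test, Benjamini-Hochberg adjustment over 15934 genes). Standard errors are the log2 fold change divided by the root of F. Members and gene lists were chosen with earlier results of these data known. The rule for named genes was all 7 members in every comparison, the ends of the range among the genes of a list that passed, and the 5 genes with the highest and lowest r. The text departs from it, since all 7 were tested in every comparison but only those on which a result turns are named, and the rest are given as counts and medians. Same-numbered libraries of the compared groups correlated above 0.1 in all 3 pairs only in DEX-24h vs DEX-6h (0.212, 0.221 and 0.230), where the block left both calls in place. Alternatives were RLE scaling, no filter, the replicate block, the compared groups alone, DESeq2 1.42.0, limma 3.58.1 on log2 FPKM plus 1 or 0.1, and leaving out each library. The fit was tested on simulated data, of which no outcome is given here and on which no result rests.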

Additional observations from a re-analysis of the deposited data

How the results depend on the processing

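At the 2-fold threshold no member was called in any comparison, and this count held in every alternative except the following. At an adjusted p under 0.05 and any fold, the count became 1 in SAP-24h vs Sham-24h, SAP-24h vs Con-24h, Emo-24h vs DEX-24h and Emo-24h vs Emo-6h, 2 in DEX-24h vs DEX-6h, and 4 in the average over 5 treatments and in that over SAP, DEX and Emo, since the requirement of 2-fold was dropped. For SAP-24h vs Con-24h the count was 1 with the replicate block, in which Ager passed 2-fold (log2 fold change -1.02), and 2 in limma on log2(FPKM + 1) and on log2(FPKM + 0.1), and it ranged from 0 to 1 when a library was left out. For Emo-24h vs Emo-6h it ranged from 0 to 1 when a library was left out. The replicate numbers mark no stated batch, and the block changed no other count at 2-fold. No call reversed its direction. Where a call was lost the cause was not tested. In the fits that left 1 library out, the smaller number of libraries and the values of that library cannot be told apart. The fits without both SAP-24h replicate 1 and DEX-6h replicate 1 were added after seeing the data. In them the calls of Clic5 in SAP-24h vs Sham-24h (adjusted p = 0.184), Ager in SAP-24h vs Con-24h (0.124), Cav1 (0.0675) and Clic5 (0.0506) in DEX-24h vs DEX-6h were lost, and the 4 average time effects passed. Of the 105 member differences in 15 comparisons with these libraries, 30 changed sign there, none of them a difference that had passed. They included Emp2 (0.0765) in SAP-24h vs Sham-24h, Emp2 (-0.18) and Rtkn2 (-0.0644) in DEX-24h vs SAP-24h, and Cav1 (0.15) and Emp2 (0.067) in DEX-6h vs Sham-6h. Most of them were in the interactions of SAP vs Sham (4), DEX vs SAP (6) and Emo vs SAP (4) with time and in Emo-6h vs DEX-6h (4). Fitted on the compared groups alone, Clic5 in SAP-24h vs Sham-24h (0.202), Ager in SAP-24h vs Con-24h (0.136) and Hopx in Emo-24h vs DEX-24h (0.0959) did not pass. Without the filter, Clic5 in SAP-24h vs Sham-24h (0.0543) and Cav1 in DEX-24h vs DEX-6h (0.0526) did not, and in limma on log2(FPKM + 1) Cav1 in DEX-24h vs DEX-6h (0.0733) did not. Rtkn2 had the fewest counts, and with 3 libraries per group the standard error of a comparison was 0.20 (Hopx) to 0.45 (Rtkn2) on the log2 scale.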
